A study of Mus musculus with 20 samples.

Results

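The MYC network is a set of transcription factors that compete for one partner, MAX. The 10 genes described here are its mouse members Myc, Mycn, Mycl, Max, Mxi1, Mxd1, Mxd3, Mxd4, Mnt and Mga. They were chosen by name, by matching gene identifiers to symbols, and are 10 of the 78258 genes in the count table. The rule uses names, not measured values, but the members were chosen with earlier results of these data known.

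MYC, MYCN and MYCL bind DNA as pairs with MAX, mostly at the E-box, and raise transcription of genes for ribosome assembly, protein synthesis and metabolism. The MXD proteins, MXI1 (also called MXD2) and MNT pair with the same MAX, bind the same boxes and recruit the SIN3 histone deacetylase complex, so they act against MYC. MGA also pairs with MAX, carries a T-box domain as well, and acts in a Polycomb repressor complex. In the nervous system MYC is best known from dividing progenitors, and it has also been linked to axon growth and survival in adult neurons.

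The tissue was the lumbar dorsal root ganglion, which holds the cell bodies of sensory neurons with their satellite glia, Schwann cells, vessels and macrophages. Male mice in which the aryl hydrocarbon receptor gene Ahr could be deleted (Ahr fl/fl with Thy1CRE-ERT2/EYFP, called cKO) were compared with control mice that carried Ahr f/f or f/+ without the recombinase by their labels, and whose titles read wildtype. Both genotypes received tamoxifen at 100 mg/kg by injection daily for 5 days at 17 weeks of age, and after 4 weeks the sciatic nerve was cut on one side. Ganglia L4 to L6 were taken 1 day later from the lesioned (ipsilateral) and the other (contralateral) side of 5 mice per genotype, giving 4 groups of 5 libraries. One label field names spinal cord injury while the protocol names sciatic transection. The contralateral ganglia come from lesioned mice and are not those of unoperated animals, and the Thy1 promoter drives the recombinase in neurons, which are only part of the ganglion's cells.

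Library totals ranged from 76150333 to 118537209 counts. Atf3, a marker of cut axons, lay between 8.46 and 13.8 CPM (each gene's count scaled to the library total, adjusted by TMM normalisation) in the contralateral libraries and between 369.7 and 461.8 CPM in the ipsilateral ones, which matches the side in each label. Ahr, the targeted gene, averaged 24.2 ± 2.10 CPM (SD, n = 5) in control and 20.4 ± 0.536 CPM in cKO contralateral ganglia, a log2 difference of -0.25 with an adjusted p of 0.103. On the ipsilateral side it averaged 34.4 ± 2.86 and 31.9 ± 2.94 CPM. Which exons the deletion removes is not given in the sources used here, and Ahr counts from cells without recombinase are included. Markers of sensory neurons summed to 7272.2 to 8569.4 CPM over all libraries, and no marker of the 11 cell types checked was at 0 in any library. The contralateral library of cKO mouse H100 held 1574.9 CPM of 5 muscle genes, against 4.45 to 57.6 CPM in the other 4 of its group. Muscle genes also reached 340.7 CPM in the contralateral library of control mouse H62 and 587.7 and 239.6 CPM in the ipsilateral libraries of H65 and H96. Leaving out cKO mouse H99 raised the number of genes that differed between genotypes on the contralateral side from 21 to 3326. Counts and some values of that comparison are therefore also given without H99 below.

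RefSeq promoter windows (GRCm38.p6, 250 bases before to 50 bases after each annotated start) were found for 9 of the 10 members, Myc being the exception, in 11 windows because Mxi1 has 3. They are shown because the network's own proteins bind the E-box CACGTG, and because the receptor encoded by the targeted gene Ahr binds TNGCGTG. Both were searched on both strands, with the E-box reading the same on each. The E-box was present in 3 of the 11 windows, those of Max, Mxd4 and Mnt, and in 7.15% of all 32851 windows. The receptor's letters were present in 2, those of Mnt and Mycl, and in 5.07% of all windows. The AP-1 site TGANTCA (7.81% of all windows) and the cAMP response element TGACGTCA (1.79%) occurred in none of the 11. In the windows below, each written 5′ to 3′ on the gene's strand, capitals mark the E-box or the receptor's letters, the latter read as CACGCNA because they lie on the opposite strand.
Max promoter, chr12:76962199-76962498, minus strand: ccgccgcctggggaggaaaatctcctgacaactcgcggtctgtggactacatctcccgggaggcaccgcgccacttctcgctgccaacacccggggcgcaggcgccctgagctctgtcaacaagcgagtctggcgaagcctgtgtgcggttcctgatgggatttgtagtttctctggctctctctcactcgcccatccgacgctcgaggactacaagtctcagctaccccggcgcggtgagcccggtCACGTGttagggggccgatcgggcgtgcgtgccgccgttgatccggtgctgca
Mxd4 promoter, chr5:34187661-34187960, minus strand: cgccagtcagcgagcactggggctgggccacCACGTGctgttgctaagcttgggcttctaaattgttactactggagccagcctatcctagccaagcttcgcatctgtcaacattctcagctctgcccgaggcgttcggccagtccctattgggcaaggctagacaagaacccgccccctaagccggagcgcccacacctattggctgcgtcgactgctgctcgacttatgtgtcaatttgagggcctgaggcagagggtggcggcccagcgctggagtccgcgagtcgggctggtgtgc
Mnt promoter, chr11:74830674-74830973, plus strand: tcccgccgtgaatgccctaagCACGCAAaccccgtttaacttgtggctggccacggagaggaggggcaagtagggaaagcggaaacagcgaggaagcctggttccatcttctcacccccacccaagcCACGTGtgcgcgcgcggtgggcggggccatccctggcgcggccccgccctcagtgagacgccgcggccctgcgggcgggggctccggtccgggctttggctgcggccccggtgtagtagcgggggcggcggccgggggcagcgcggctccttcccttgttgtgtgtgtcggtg
Mycl promoter, chr4:122995681-122995980, plus strand: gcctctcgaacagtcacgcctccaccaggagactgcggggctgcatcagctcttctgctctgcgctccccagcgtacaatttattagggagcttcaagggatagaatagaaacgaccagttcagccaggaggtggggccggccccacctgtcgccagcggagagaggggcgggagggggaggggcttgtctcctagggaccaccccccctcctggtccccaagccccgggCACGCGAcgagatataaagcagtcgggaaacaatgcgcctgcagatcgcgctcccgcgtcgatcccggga
The E-box began at position -3 of Max, so that it spans the annotated start, at -219 of Mxd4 and at -123 of Mnt. The receptor's letters began at -229 of Mnt and -20 of Mycl. Such matches describe the letters only, and binding was not measured.

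Nerve transection was followed by a rise of Myc and Mnt and a fall of Mxi1 and Mxd4 on the lesioned side, in both genotypes. In control mice 4 of the 10 members changed, with 2 higher and 2 lower (edgeR's quasi-likelihood test, adjusted p under 0.05 over 28564 genes). Among all genes tested 29.9% changed, with 13.8% higher and 16.0% lower. In cKO mice 5 of the 10 changed, the same 4 and Mycn, against 31.3% of all genes, of which 16.2% were higher and 15.1% lower. The control call of Mxd4 sat at the threshold (adjusted p = 0.0478) and was lost in 15 of 17 alternatives, and without control mouse H62 the control count was 2 of 10. The median log2 change of the 10 members was 0.06 in control and 0.01 in cKO mice, beside -0.00 and -0.03 over all genes. All 10 members passed the filter on low counts. These are values of whole ganglia, in which fewer cells of a type and less RNA per cell cannot be told apart.

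**Figure D1:**
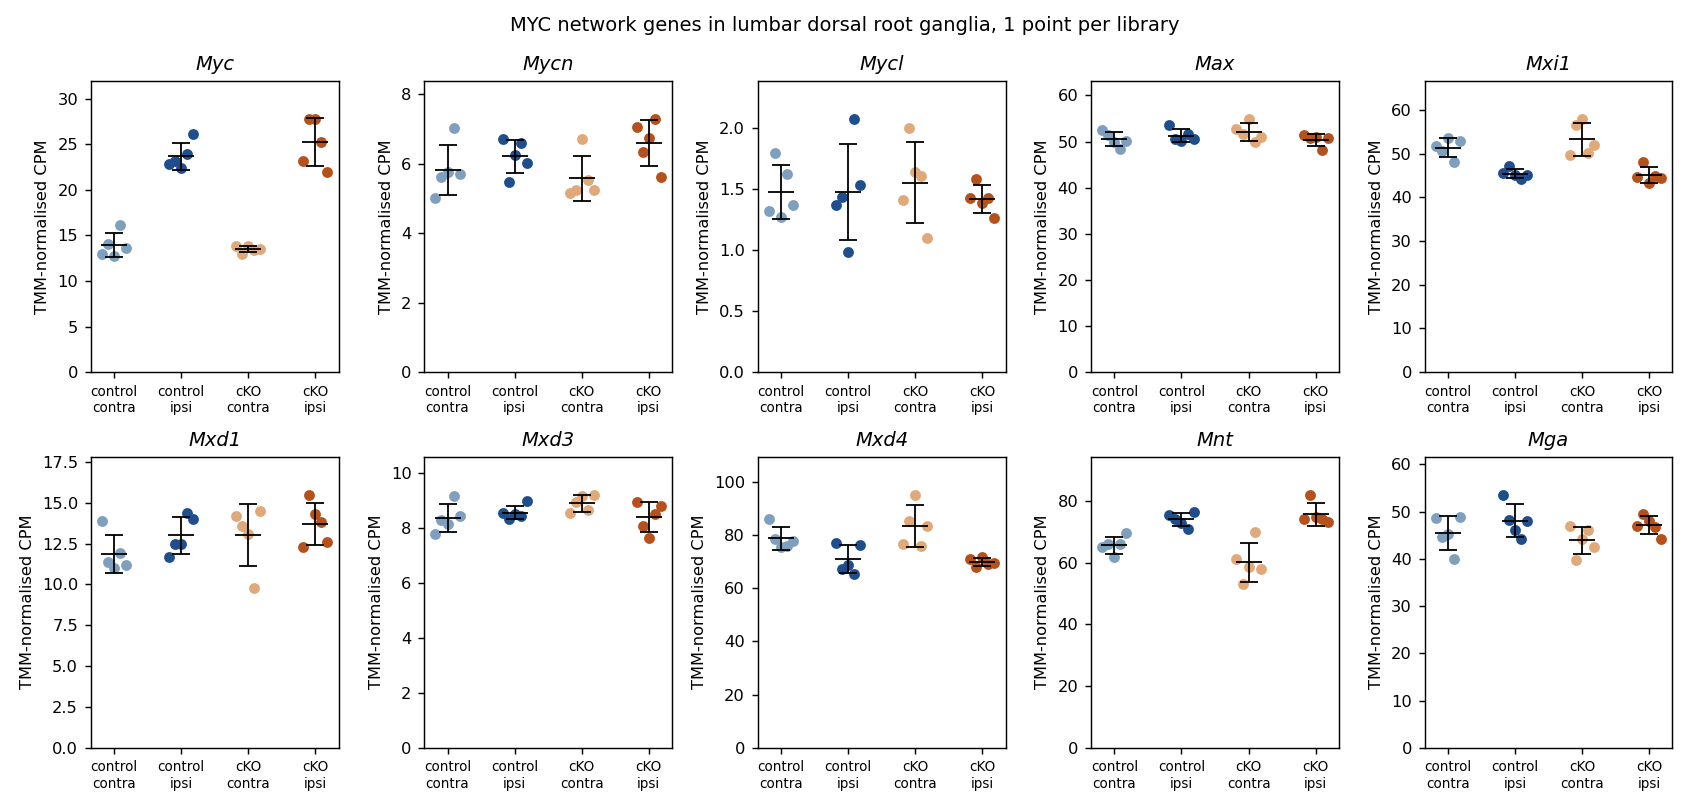
Normalised CPM (vertical axes, from 0) of the 10 genes, with 1 point per library, a long bar for the mean and short bars for the SD of each group of 5. Myc is the gene whose contralateral libraries (12.8 to 16.1 CPM) and ipsilateral libraries (22.0 to 27.8 CPM) lie farthest apart relative to their level.

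Myc encodes the MYC protein, the member that responded most. Its level in the contralateral ganglia of control mice H62, H63, H65, H96 and H97 was 13, 14.1, 12.8, 16.1 and 13.6 CPM, and in their ipsilateral ganglia 22.9, 23.2, 22.4, 23.9 and 26.2 CPM. In cKO mice H61, H64, H95, H99 and H100 it was 13.9, 13, 13.8, 13.4 and 13.5 CPM on the contralateral and 23.2, 27.8, 27.8, 25.3 and 22.0 CPM on the ipsilateral side. Every ipsilateral library was above every contralateral one, and the cKO ipsilateral libraries were more spread than any other group.

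Myc rose 1.70-fold in control mice (log2 0.77, SE 0.0684, 95% interval 0.63 to 0.91, adjusted p = 2.46e-08). In cKO mice it rose 1.87-fold (log2 0.90, SE 0.0686, 95% interval 0.76 to 1.04, adjusted p = 1.80e-09). The rise was present in 10 of 10 animals. On the log2 scale the smallest and largest within a mouse were 0.57 (H96) and 0.95 (H97) among controls, and 0.70 (H100) and 1.10 (H64) among cKO mice. Among the 3956 genes higher in control ipsilateral ganglia, 965 rose by more than Myc, and in cKO mice 825 of 4632 did.

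Mycn, the paralogue known from neural progenitors, read 5.02, 5.61, 5.75, 7.02 and 5.71 CPM in control contralateral and 6.70, 5.48, 6.26, 6.59 and 6.02 CPM in control ipsilateral ganglia, in the mouse order given for Myc. In cKO mice it read 5.17, 5.25, 6.72, 5.54 and 5.24 CPM on the contralateral and 7.06, 6.34, 6.74, 7.29 and 5.61 CPM on the ipsilateral side. The sides overlap in both genotypes, and the highest contralateral value within cKO mice, that of H95, stands apart from the other 4.

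Mycn rose in cKO mice by 0.24 on the log2 scale (SE 0.0916, adjusted p = 0.0479), with 5 of 5 mice higher on the lesioned side. In control mice the change was 0.09 (95% interval -0.10 to 0.28, adjusted p = 0.509), with 3 of 5 mice higher. The cKO call was lost without mouse H61 (log2 0.19, adjusted p = 0.189), H64 (0.24, 0.117) or H99 (0.21, 0.139), and adjusted p was between 0.0513 and 0.0616 without control mouse H63, H65 or H97. It was also lost with all mice when only the libraries compared were in the fit (0.26, adjusted p = 0.0532). Over all alternatives it ranged from 0.0183 to 0.189, and the difference of the change between genotypes was 0.15 (95% interval -0.12 to 0.42, adjusted p = 0.705).

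Mycl, the third MYC paralogue, had the fewest counts of the 10 members, 82 to 195 per library. Its mean was 1.47 ± 0.220 CPM in control contralateral, 1.48 ± 0.394 in control ipsilateral, 1.55 ± 0.330 in cKO contralateral and 1.41 ± 0.112 in cKO ipsilateral ganglia (SD, n = 5 each). The change on the lesioned side was 0.00 in controls (95% interval -0.34 to 0.34) and -0.14 in cKO mice (-0.48 to 0.20). These intervals are the widest of the 10 members, so a change of Mycl within them was not detectable here.

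Max, the shared partner, was the steadiest gene of the network. All 20 libraries lay between 48.1 and 54.9 CPM, and the SD of a group was at most 3.71% of its mean. The group means were 50.5 ± 1.60, 51.3 ± 1.33, 52.0 ± 1.93 and 50.4 ± 1.27 CPM for control contralateral, control ipsilateral, cKO contralateral and cKO ipsilateral ganglia. The change on the lesioned side was 0.02 in controls (95% interval -0.04 to 0.09) and -0.05 in cKO mice (-0.11 to 0.02). Both intervals leave out a change of Max larger than 0.11 in size on the log2 scale.

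**Figure D2:**
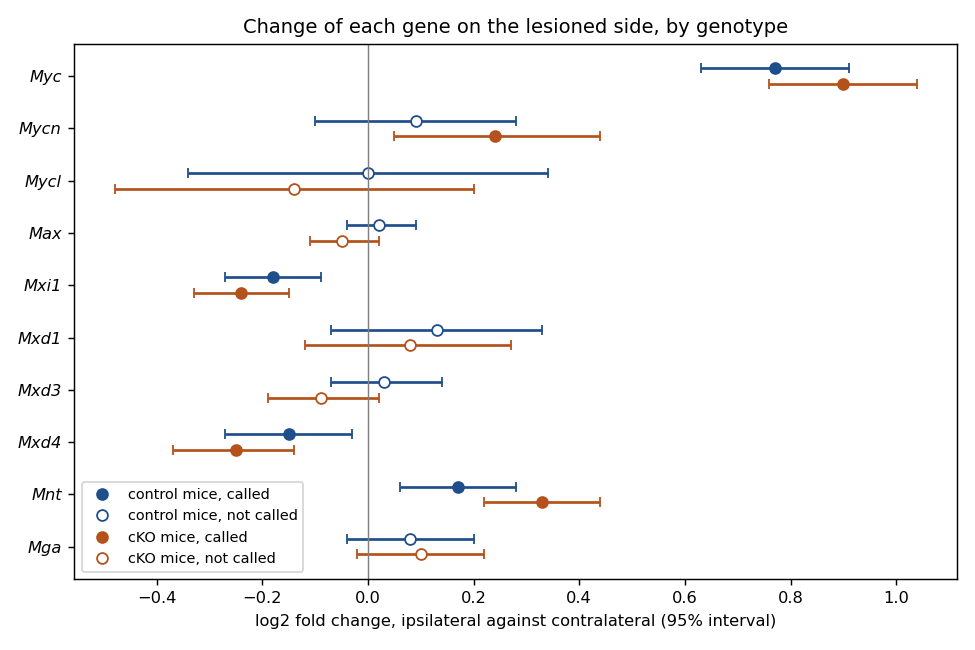
Log2 fold change of each of the 10 genes, ipsilateral against contralateral ganglia (horizontal axis), with 95% intervals as bars, blue for control and orange for cKO mice. Filled points passed an adjusted p under 0.05. Myc lies at 0.77 and 0.90, Mnt at 0.17 and 0.33, Mxi1 at -0.18 and -0.24 and Mxd4 at -0.15 and -0.25.

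Mnt encodes the most widely made MAX-binding repressor, and it rose in both genotypes. Control contralateral ganglia read 65.1, 66.0, 62, 66.0 and 69.7 CPM and control ipsilateral ganglia 75.6, 74.3, 73.0, 71.0 and 76.6 CPM. In cKO mice the contralateral ganglia read 61.1, 53.0, 58.5, 70.0 and 57.9 CPM and the ipsilateral ganglia 74.1, 82.1, 75.0, 74.1 and 73.1 CPM. The sides do not overlap in either genotype. Within cKO mice the contralateral ganglion of H99 was the highest of its side, and H64 was both the lowest contralateral and the highest ipsilateral value.

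The rise of Mnt was 12.7% in control mice (log2 0.17, SE 0.0530, adjusted p = 0.0170) and 25.9% in cKO mice (log2 0.33, SE 0.0530, adjusted p = 5.08e-05). It was present in 10 of 10 mice. The smallest and largest log2 changes were 0.10 and 0.23 among controls, and 0.08 (H99) and 0.63 (H64) among cKO mice. Without H64 the cKO change was 0.26, and without H99 it was 0.40, both still past the threshold. The control call was lost without mouse H62 (log2 0.16, adjusted p = 0.0640).

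Mxi1, a MAX partner that represses MYC targets, fell in both genotypes. Its contralateral level was 51.8, 50.6, 53.5, 48.1 and 52.8 CPM in control mice, against 45.5, 47.2, 45.1, 44.2 and 45.1 CPM on the lesioned side. In cKO mice the values were 49.7, 56.5, 57.9, 50.2 and 51.9 CPM contralaterally and 44.7, 48.1, 43.3, 44.8 and 44.5 CPM ipsilaterally. No ipsilateral library of a genotype reached the lowest contralateral one, and the cKO contralateral libraries of H64 and H95 were the 2 highest of all 20.

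Mxi1 fell by 0.18 on the log2 scale in control mice (SE 0.0424, adjusted p = 0.00269) and by 0.24 in cKO mice (SE 0.0423, adjusted p = 0.000160). It was lower on the lesioned side in 10 of 10 mice, and both calls held under every alternative tried, including without each mouse in turn. Mxi1 shares 194 exon bases with Gm10197 on the opposite strand. The library kit keeps strand, but the strand setting of the counting is not given in the sources used here, so reads from those bases cannot be assigned with certainty.

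Mxd4, an antagonist known from cells that leave the cycle, fell as well. Control contralateral ganglia read 86.2, 78.5, 75.6, 76.0 and 77.7 CPM and control ipsilateral ganglia 76.9, 67.4, 68.7, 65.4 and 76.2 CPM. In cKO mice Mxd4 read 76.5, 85.4, 95.2, 76.0 and 83.6 CPM on the contralateral and 71.0, 68.0, 71.9, 69.1 and 69.6 CPM on the ipsilateral side. The sides overlap in controls, where the ipsilateral ganglia of H62 and H97 exceed the lowest contralateral ones, and are separate in cKO mice.

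The fall of Mxd4 was 0.25 on the log2 scale in cKO mice, written as a change of -0.25 (SE 0.0564, adjusted p = 0.00152), and was called under every alternative. In control mice the change was -0.15 (SE 0.0564, adjusted p = 0.0478), with all 5 mice lower, between -0.22 and -0.03. That call sat at the threshold. It was kept when the mouse was a block (adjusted p = 0.0152) and without cKO mouse H61 (0.0489), and it was lost without each of the other 9 mice (-0.17 to -0.12, adjusted p 0.0532 to 0.222) and with 6 other settings (0.0539 to 0.0793). Mxd4 shares 514 exon bases with Gm42846, an antisense gene on the opposite strand, with the same limit as for Mxi1.

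**Figure D3:**
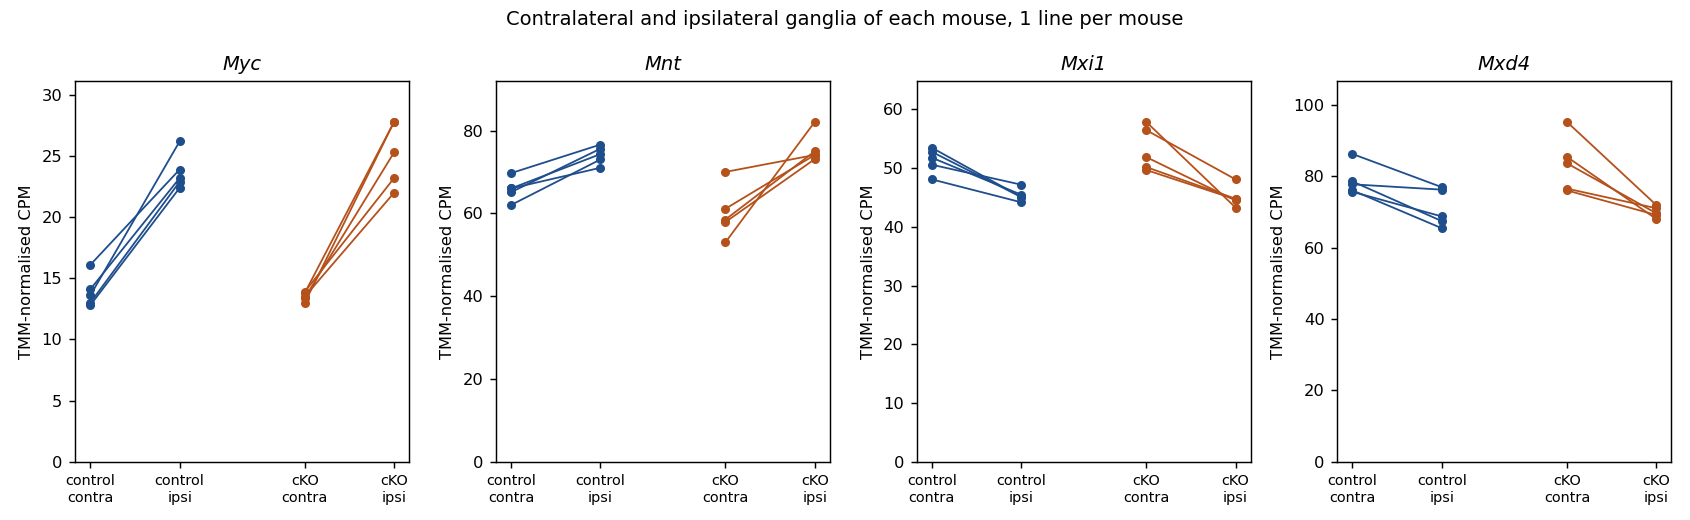
Normalised CPM (vertical axes, from 0) of Myc, Mnt, Mxi1 and Mxd4 in the contralateral and ipsilateral ganglia of each mouse, joined by 1 line per mouse, blue for control and orange for cKO. The lines of Myc and Mnt go up in 10 of 10 mice, and those of Mxi1 and Mxd4 go down in 10 of 10.

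The remaining antagonists did not pass the test in either genotype. Mxd1, the founding MXD gene, averaged 11.9 ± 1.18 and 13 ± 1.16 CPM on the contralateral and ipsilateral side of control mice, and 13 ± 1.87 and 13.7 ± 1.29 CPM in cKO mice (SD, n = 5). Its change was 0.13 in controls (95% interval -0.07 to 0.33) and 0.08 in cKO mice (-0.12 to 0.27). Single mice went both ways, with extremes of -0.26 and 0.32 among controls and of -0.20 and 0.50 among cKO mice.

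Mxd3, known from dividing progenitors, averaged 8.37 ± 0.510, 8.56 ± 0.25, 8.90 ± 0.312 and 8.39 ± 0.536 CPM in control contralateral, control ipsilateral, cKO contralateral and cKO ipsilateral ganglia. Its change was 0.03 in controls (95% interval -0.07 to 0.14) and -0.09 in cKO mice (-0.19 to 0.02). It shares 105 exon bases with Prelid1 on the opposite strand. Mga, the large T-box partner of MAX, averaged 45.5 ± 3.61, 48.1 ± 3.50, 43.9 ± 2.92 and 47.1 ± 1.91 CPM in the same order. Its change was 0.08 in controls (95% interval -0.04 to 0.20) and 0.10 in cKO mice (-0.02 to 0.22).

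Levels of different genes were compared as CPM per kilobase of merged exons, a scale that understates genes with long, rarely used exons. In control contralateral ganglia Mnt (14.2 ± 0.591, SD, n = 5) and Max (14 ± 0.444) were highest and did not differ beyond their spread. Mxd4 (9.29 ± 0.506), Mxi1 (7.53 ± 0.308), Myc (5.13 ± 0.492), Mxd3 (3.53 ± 0.215) and Mga (2.97 ± 0.235) followed, each with a range of libraries clear of its neighbours. Mycn (1.77 ± 0.222) and Mxd1 (1.68 ± 0.167) were within each other's spread, and Mycl (0.365 ± 0.0545) was the lowest.

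In control ipsilateral ganglia Myc stood at 8.73 ± 0.550 CPM per kilobase and had moved from the fifth place to the third, level with Mxd4 at 8.36 ± 0.623 within their spread. In cKO mice Myc stood at 4.98 ± 0.138 contralaterally and 9.29 ± 0.976 ipsilaterally, again overlapping Mxd4 (8.24 ± 0.181) on the lesioned side. Mnt was the highest member on both lesioned sides, at 16.0 ± 0.482 in control and 16.4 ± 0.790 CPM per kilobase in cKO mice. Max stayed within 14 to 14.5 CPM per kilobase over the 4 group means.

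**Figure D4:**
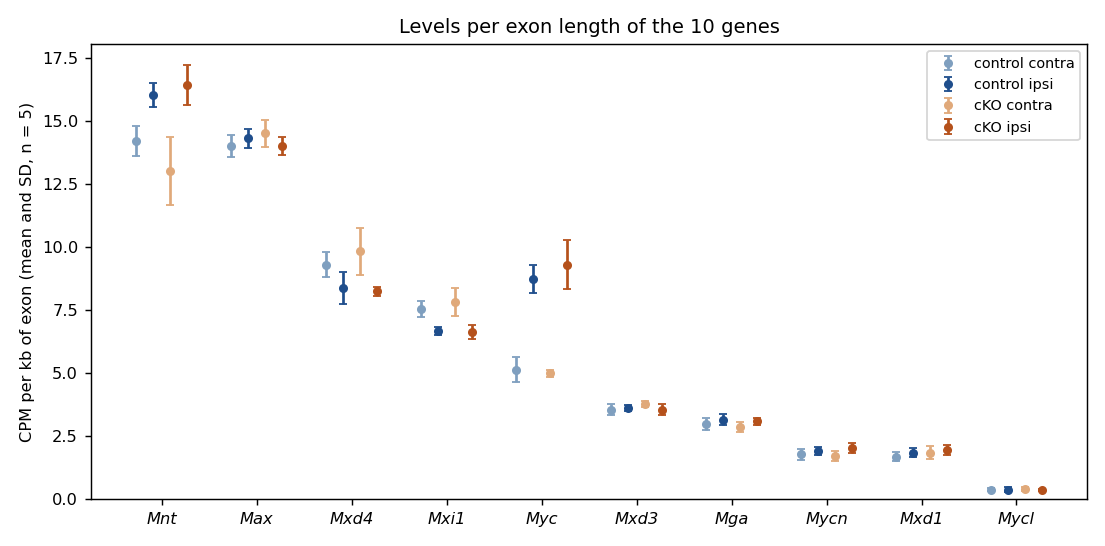
Mean level of the 10 genes in CPM per kilobase of exon (vertical axis, from 0), with the SD over 5 libraries as bars and 1 colour for each group, ordered by the control contralateral mean. Ipsilateral Myc, at 8.73 in control and 9.29 in cKO mice, lies at the level of Mxd4 and above contralateral Myc (5.13 and 4.98).

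Summed by role on this scale, Myc, Mycn and Mycl came to 7.26 ± 0.731 CPM per kilobase in control contralateral and 11.0 ± 0.602 in control ipsilateral ganglia, and to 7.06 ± 0.279 and 11.6 ± 1.07 in cKO mice. Myc made up 70.7% of that sum contralaterally and 79.5% ipsilaterally in controls, and 70.6% and 79.7% in cKO mice. The sum of Mxi1, Mxd1, Mxd3 and Mxd4 was 22.0 ± 0.571 and 20.5 ± 0.674 in controls and 23.2 ± 1.65 and 20.3 ± 0.239 in cKO mice. With Mnt added, the antagonists came to 36.2 and 36.5 in controls and 36.2 and 36.7 CPM per kilobase in cKO mice, with a higher Mnt beside a lower Mxi1 and Mxd4.

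The ratio of the MYC sum to the MXD sum was 0.330 ± 0.0393 contralaterally and 0.537 ± 0.0254 ipsilaterally in controls, and 0.305 ± 0.0192 and 0.573 ± 0.0526 in cKO mice. Its libraries ran from 0.285 to 0.393 on the contralateral and from 0.5 to 0.630 on the ipsilateral side, without overlap. With Mnt in the denominator the ratio was 0.201 and 0.301 in controls and 0.195 and 0.317 in cKO mice. These are ratios of transcript levels, described without a test, and say nothing of the proteins.

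None of the 10 genes passed the same test between the genotypes. On the contralateral side 0 of 10 members differed between cKO and control, with 0.0735% of all genes differing (21 genes). On the ipsilateral side 0 of 10 differed, against 0.00700% of all genes (2 genes). The lesion response differed between the genotypes for 0 of 10 members and for 0% of all genes, the latter being 0 of 28564. At an unadjusted p under 0.05 the counts of members were 1, 0 and 1, and of all genes 5006, 674 and 2799. DESeq2 called 0 members in each of the 3 comparisons, beside 1030, 3 and 11 of all genes. Without cKO mouse H99, edgeR called 1 member on the contralateral side (Mnt), beside 11.5% of all genes, and 0 on the ipsilateral side and for the response. The contralateral difference of Mxd1 was 0.13 (adjusted p = 0.495) with all mice and 0.22 (adjusted p = 0.0844) without H99. That of Myc was -0.04 in both.

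For Myc the cKO minus control difference was -0.04 on the contralateral side (95% interval -0.19 to 0.10) and 0.09 on the ipsilateral side (-0.05 to 0.23). The Myc response was 0.13 larger in cKO mice on the log2 scale (95% interval -0.07 to 0.33, adjusted p = 0.647), so the interval reaches from a slightly smaller response to one about 1.26-fold larger. Without a mouse it ran from 0.07 (H96) to 0.18 (H100), with 0.08 without H64. For Mxi1 and Mxd4 the differences of the response were -0.06 (95% interval -0.19 to 0.06) and -0.10 (-0.27 to 0.06). The comparisons of the genotypes on one side share libraries with those of the lesion, and a low contralateral level enters both.

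Mnt was the member with an unadjusted p under 0.05 in both of those comparisons. Its cKO mean on the contralateral side was 60.1 ± 6.24 CPM against 65.8 ± 2.73 in controls (log2 -0.13, 95% interval -0.24 to -0.02, unadjusted p = 0.02401, adjusted p = 0.213), and on the ipsilateral side 75.7 ± 3.66 against 74.1 ± 2.23 (0.03). The response differed by 0.16 (95% interval 0.00 to 0.32, adjusted p = 0.506). Without mouse H99, whose contralateral ganglion read 70.0 CPM, the contralateral difference was -0.19 with an adjusted p of 0.0117, and the response differed by 0.23 with an adjusted p of 0.0963. Without mouse H64, whose contralateral ganglion read 53.0 CPM, they were -0.09 (adjusted p = 0.467) and 0.09 (adjusted p = 0.822). The Mnt call without H99 is 1 of 3326 genes called then, so the member count went from 0 to 1 as the whole comparison changed.

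Fibroblast marker levels, picked with their values known, also varied among these contralateral libraries. The summed level of 6 fibroblast markers in cKO contralateral ganglia was 1002.9, 2235.9, 1980.3, 934.8 and 1684.7 CPM in H61, H64, H95, H99 and H100, and 801.6 to 1355.7 CPM in the control ones. Among the 5 cKO contralateral libraries, the pair with the most fibroblast RNA, H64 and H95, had the highest Mxi1 and Mxd4 values, and the pair with the least, H99 and H61, had the highest Mnt values. Among the 5 control contralateral libraries, H62 had the most fibroblast RNA (1355.7 CPM) and the highest Mxd4 (86.2 CPM), while H65 had the least (801.6 CPM), with the highest Mxi1 (53.5 CPM) and the lowest Mnt (62 CPM). None of the 6 markers passed the test between genotypes on that side with edgeR, 5 had an unadjusted p under 0.05 (83.3%, beside 17.5% of all genes), and DESeq2 called 2 (33.3%, beside 3.61% of all genes). Without H99 edgeR called 2 of the 6, beside 11.5% of all genes. With the lesion, none of the 6 passed edgeR's test in either genotype, with 1 and 1 at an unadjusted p under 0.05 in control and cKO mice, and DESeq2 called 1 and 0. Their median log2 change was 0.32 in control mice, with 6 of 6 positive, and -0.48 in cKO mice, with 1 of 6 positive. The ipsilateral sums were 924.2 to 1518.5 CPM in control and 848.3 to 1557.5 CPM in cKO mice. Other marker lists were also higher in cKO than control contralateral ganglia, with no gene called by edgeR or DESeq2. Muscle, neutrophil, dividing cell and erythroid markers had median log2 differences of 1.43, 0.79, 0.55 and 0.47, beside 0.81 for fibroblast markers. Macrophage and endothelial markers had medians of 0.24 and 0.14, and every gene of these lists was positive. Satellite glia, Schwann cell, sensory neuron and lymphocyte markers had medians of 0.09, 0.03, -0.03 and -0.45. The part of RNA from fibroblasts or other cell types in the Mnt, Mxi1 and Mxd4 values was not tested.

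Some cell type markers also changed on the lesioned side. Of 10 sensory neuron markers 4 were lower in control mice (Isl1, Rbfox3, Scn10a and Pou4f1) and 3 in cKO mice (Isl1, Rbfox3 and Calca), beside 16.0% and 15.1% of all genes, and none was higher. Tubb3 (0.10 in control and 0.02 in cKO mice), Prph (0.02 and -0.03), Avil (-0.02 and 0.08) and Nefh (-0.05 and -0.16) did not pass in either genotype. Of 4 satellite glia markers Kcnj10 and Glul were higher in both genotypes (50%, beside 13.8% and 16.2% of all genes), and the summed satellite glia level was 556.3 to 618.6 CPM contralaterally and 717.4 to 778.1 ipsilaterally in control mice. In cKO mice it was 558.2 to 713.5 and 709.1 to 751.4 CPM. Most of that sum was Glul, with means of 361.6 and 497.2 CPM on the contralateral and ipsilateral side of control mice and 392.4 and 482.9 CPM in cKO mice. Fabp7 (0.03 in control and -0.20 in cKO mice) and Slc1a3 (0.14 and -0.01) did not pass the test. Of 6 endothelial markers Flt1 (0.35) and Tek (0.41) were higher in control mice (33.3%), with 5 of 6 at an unadjusted p under 0.05, beside 38.6% of all genes, and Cldn5 at 0.02. Of 8 macrophage markers Mrc1 (0.79) was higher in control mice (12.5%), and the other 7 lay between 0.07 (Adgre1) and 0.59 (Cd68). In cKO mice none of these 14 passed, with Flt1, Tek and Mrc1 at -0.01, 0.07 and 0.34 and 0 at an unadjusted p under 0.05. The test of the difference in response between the genotypes called none of these 14. It gave 0 of them at an unadjusted p under 0.05, beside 9.80% of all genes. DESeq2 called 3 endothelial and 2 macrophage markers in control mice and 0 in cKO mice. Of 6 Schwann cell markers 1 was higher in control mice (16.7%, beside 13.8% of all genes) and 0 in cKO mice. None of 5 muscle markers passed edgeR's test in either genotype, with median log2 changes of 0.54 in control and -3.39 in cKO mice. DESeq2 called 0 of these 5 in control and 3 in cKO mice (60.0%, beside 32.3% of all genes). The markers named here were picked with their values known.

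None of the 6 dividing cell markers passed the test in either genotype with edgeR or DESeq2, with 1 and 0 at an unadjusted p under 0.05 in control and cKO mice. Their sum was 13.5 to 29.1 and 14.3 to 38.2 CPM on the contralateral and ipsilateral side of control mice and 14.1 to 39.2 and 16.3 to 25.4 CPM in cKO mice. The part of satellite glia or other non-neuronal RNA in the changes of Myc, Mnt, Mxi1 and Mxd4 was not tested.

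The wider pathway was read from 5 lists of 82 genes, of which 39 changed with the lesion in control mice and 46 in cKO mice (47.6% and 56.1%, beside 29.9% and 31.3% of all genes). Over all genes 13.8% were higher and 16.0% lower in control mice and 16.2% and 15.1% in cKO mice, and each list below is read beside these shares. All genes tested include many with fewer counts than most listed genes, and the shares were not matched for level. The lists were also chosen with earlier results of these data known. Of 36 genes known to be activated by MYC, 17 were higher and 2 lower in control mice (47.2% and 5.56%), and 18 were higher and 3 lower in cKO mice (50% and 8.33%). Their median log2 change was 0.12 in control and 0.10 in cKO mice, beside -0.00 and -0.03 over all genes. Leaving out a mouse gave 16 to 18 higher in control and 15 to 19 in cKO mice.

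Odc1, the rate-limiting enzyme of polyamine synthesis, stood at 70.0 ± 2.02 CPM contralaterally and 133.4 ± 9.52 CPM ipsilaterally in control mice (log2 0.93, adjusted p = 4.87e-11). In cKO mice it stood at 74.5 ± 6.53 and 137.1 ± 7.49 CPM (0.88). Eif4e, the factor that binds the mRNA cap, rose by 0.72 and 0.68 on the log2 scale. Slc7a5, an amino acid transporter, rose by 0.58 and 0.62. Shmt2, of mitochondrial one-carbon metabolism, rose by 0.46 and 0.49, and Rrp12, of ribosome export, by 0.36 and 0.57. Genes of the same list that fell were Dkc1 (-0.17 in control and -0.25 in cKO mice), a pseudouridine synthase, and Tfam (-0.15 and -0.12), of mitochondrial DNA maintenance, with Hspe1 in cKO mice (-0.16, and -0.05 in controls with an adjusted p of 0.425). The choice of these last 3 was made with their values known.

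Of 8 genes known to be repressed by MYC, 2 were higher and 1 lower in control mice (25.0% and 12.5%) and 3 were higher and 1 lower in cKO mice (37.5% and 12.5%). The other 5 and 4 did not pass the test, and the median log2 change was 0.17 and -0.02. Gadd45a, a stress gene, stood at 18.7 ± 1.55 CPM contralaterally and 150.2 ± 5.22 CPM ipsilaterally in control mice (log2 3, adjusted p = 2.46e-18). In cKO mice it stood at 17.8 ± 1.14 and 150.3 ± 11.8 CPM (3.08). Cdkn1a, which encodes the cell cycle inhibitor p21, rose by 1.35 and 1.42 on the log2 scale. Cdkn2b rose by 0.27 in cKO mice, and its difference of 0.22 in controls had an adjusted p of 0.0669. Cdkn1b, which encodes p27, fell by 0.17 and 0.13. Gadd45a and Cdkn1a rose in the same ganglia as Myc. Without H62 or H99, 2 of the 8 were lower in cKO mice.

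**Figure D5:**
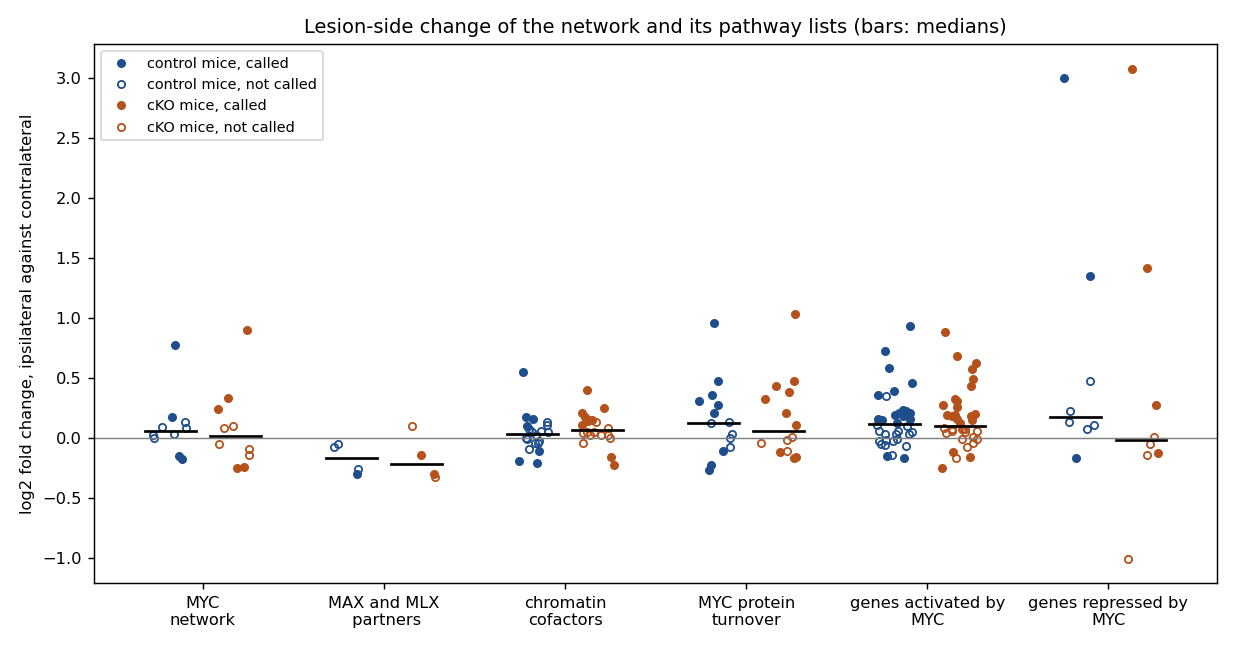
Log2 fold change, ipsilateral against contralateral (vertical axis), of the 10 network genes and the 5 pathway lists, with 1 point per gene, filled where adjusted p was under 0.05, and a bar at each median. The list of genes activated by MYC has medians of 0.12 and 0.10, and the 2 points near 3 are Gadd45a.

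Of 14 genes that set the stability of the MYC protein, 6 were higher and 3 lower in control mice (42.9% and 21.4%) and 7 were higher and 3 lower in cKO mice (50% and 21.4%), with medians of 0.13 and 0.06. Pim1, a kinase that stabilises MYC, rose by 0.96 and 1.03 on the log2 scale, from 14.1 ± 0.934 to 27.3 ± 2.44 CPM in controls. Aurka, which protects MYCN from degradation, rose by 0.47 in both genotypes, and the deubiquitinase gene Usp28 by 0.31 and 0.38. Usp36, another deubiquitinase gene, rose by 0.27 and 0.43. Ppp2r5a, a phosphatase subunit gene, rose by 0.36 in controls, and in cKO mice its difference was 0.01 (95% interval -0.20 to 0.21, adjusted p = 0.971), while the test of the difference between the genotypes gave -0.35 with an adjusted p of 0.491. Gsk3b, whose kinase prepares MYC for degradation, rose by 0.21 and 0.32, and Huwe1, a ubiquitin ligase gene, by 0.21 in cKO mice (0.12 in controls, adjusted p = 0.252), both picked with values known. The lower genes included Fbxw7 (-0.27 and -0.12), whose product marks MYC for the proteasome, Fbxl14 (-0.11 and -0.16), with Cip2a in controls (-0.23, and -0.11 in cKO mice with an adjusted p of 0.355), all chosen with their values known. The count of lower genes in controls was 1 in place of 3 without H63, H96 or H97.

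Among 20 chromatin cofactors of the network 4 were higher and 3 lower in control mice and 7 were higher and 2 lower in cKO mice, with medians of 0.03 and 0.07. Those called made up 35.0% and 45.0% of the list, beside 29.9% and 31.3% of all genes. Suds3, a subunit of the SIN3 complex, fell by 0.21 and 0.23, and Ruvbl1, an ATPase of MYC coactivator complexes, fell by 0.19 and 0.16. Wdr5, which helps to anchor MYC on chromatin, rose by 0.17 in both, Actl6a by 0.16 and 0.15, and Smarcb1 by 0.10 and 0.21. Sap30, another SIN3 subunit gene, was higher by 0.55 and 0.40, chosen with its values known.

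Of the 4 partners in the neighbouring MAX and MLX network, Bmyc, a rodent relative of Myc without the DNA-binding part, fell by 0.30 in both genotypes (SE 0.0441 each). Mlx, the partner of the glucose-sensing MondoA and ChREBP proteins, fell by 0.14 in cKO mice (-0.08 in controls, adjusted p = 0.154), where 1 of 4 in place of 2 of 4 was lower without H100. In the genotype and response comparisons 0 of the 82 pathway genes passed edgeR's test. At an unadjusted p under 0.05 the counts were 16 on the contralateral side, 0 on the ipsilateral side and 8 for the response (19.5%, 0% and 9.76% of the 82, beside 17.5%, 2.36% and 9.80% of all genes). DESeq2 called 3, 0 and 0 of the 82 (3.66% on the contralateral side, beside 3.61% of all genes). Without H99 edgeR called 14 of the 82 on the contralateral side (17.1%, beside 11.5% of all genes) and 0 on the ipsilateral side and for the response.

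Kctd11 and Dot1l were among the 3 genes whose log2 CPM most resembled that of Myc over the 20 libraries, of 13111 genes averaging 5 CPM or more, with Pearson correlations of 0.983 and 0.981. These values include the gap between the sides. After the group means were removed the correlations were 0.756 and 0.757. They are descriptions over libraries that share animals, without a test.

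Mouse numbers fall into the ranges 61 to 65 and 95 to 100, each with both genotypes, and whether these were separate cohorts is not stated. The lower range held 3 control and 2 cKO mice and the higher range 2 control and 3 cKO mice. Each value below is a mean of so few mice, without a test. The rise of Myc was 0.78 and 0.76 in the control mice and 0.92 and 0.88 in the cKO mice of the lower and higher range. Mxi1 changed by -0.18 and -0.18 in control and -0.19 and -0.27 in cKO mice, and Mxd4 by -0.17 and -0.12 in control and -0.22 and -0.27 in cKO mice. Mnt changed by 0.21 and 0.12 in control and 0.45 and 0.26 in cKO mice. Mycn changed by 0.17 and -0.01 in control and 0.36 and 0.17 in cKO mice. The direction in the 2 ranges was the same for Myc, Mxi1, Mxd4 and Mnt in both genotypes and for Mycn in cKO mice only. The contralateral genotype difference of Mnt was -0.18 and -0.13 in the 2 ranges.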

How the data were processed

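Messenger RNA of 20 ganglion samples was sequenced as paired reads of 150 bases from stranded libraries, per the labels. The authors deposited whole-number exonic read counts per gene, not normalised. The submitters' processing notes name HISAT2, Picard, mm10 and mm39, with no roles, and the strand setting is not given in the sources used here. A deposited normalised table was not used. Symbols and exon lengths came from GENCODE M21, and 51487 of 78258 identifiers had a symbol. Groups came from the labels, with library names used where a title gave H6 for H61.

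Counts were scaled by TMM (factors 0.975 to 1.04), which also gives the CPM values, filtered with filterByExpr (28564 genes) and fitted with edgeR 4.0.16 in R 4.3.3 (robust quasi-likelihood F-test, 1 mean per group, all 20 libraries), with Benjamini-Hochberg adjustment over all genes. Genes at adjusted p under 0.05 are called higher or lower. DESeq2 1.42.0, other scaling and filters, a mouse block and leaving out each mouse were alternatives, and list counts without a mouse were added after seeing the data. The script was tested on simulated data.

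Both sides came from the same animal, which pairs the libraries. Same-mouse deviations correlated at a median of 0.186 (-0.0546 to 0.361, above 0.1 in 7 of 10 mice). No pair of libraries of a group agreed within sampling noise (chi-square per degree of freedom 5.31 to 58.3 over 40 pairs). The mice are separate animals, but the main fit did not use the pairing of the sides. Its p-values measure the spread between libraries within groups. Among the fits, only the alternative with the mouse as a block took the pairing into account.

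All 10 members were named, with 4 genes per pathway list and lesion comparison by size of change among those called with at least 5 CPM, and the 3 genes most like Myc. Some genes that this rule names are not reported here. Members, lists and tests were chosen with earlier results of these data known.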

Additional observations from a re-analysis of the deposited data

Results flagged for a closer look

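For each of the 10 genes, the 4 groups of 5 CPM values and the 2 groups of 5 within-mouse changes were examined. In 4 of these 60 sets 1 library stood far from the rest by Dixon's ratio, whose 95% limit is 0.71. Chance gives about 1 in 20 sets, which is 3 here. Mycn in the contralateral ganglion of cKO mouse H95 was 6.72 CPM against 5.17 to 5.54 CPM in the other 4 (ratio 0.765). Max in the ipsilateral ganglion of cKO mouse H99 was 48.1 CPM against 50.7 to 51.4 CPM (ratio 0.774). Mxd4 in the contralateral ganglion of control mouse H62 was 86.2 CPM against 75.6 to 78.5 CPM (ratio 0.727). Mnt in the ipsilateral ganglion of cKO mouse H64 was 82.1 CPM against 73.1 to 75.0 CPM (ratio 0.784).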

How the results depend on the processing

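Of 820 recomputed log2 changes of the 10 genes, 774 kept their direction and side of the threshold, 23 lost a call, 1 gained one and 22 turned sign by the unrounded value, and all 40 of 40 group means moved by less than their SD with RLE scaling. The median log2 change of all genes lay between -0.030 and 0.011 over the 5 comparisons with TMM and between -0.025 and 0.006 with RLE.

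Members called in control mice numbered 3 to 4 with all mice and 2 to 4 without a mouse, the 2 being without H62. In cKO mice they numbered 4 to 5 in both. On the contralateral side the genotype comparison called 0 members, or 1 without H99, and 21 genes, against 50 with no filter, 45 with a mean CPM of at least 1, 1030 with DESeq2, 2 with only the libraries compared, and 4 to 3326 without a mouse. The response comparison called 0 genes, 11 with DESeq2 and 0 to 43 without a mouse. Calls lost for single genes were 15 for Mxd4 and 1 for Mnt in control mice and 7 for Mycn in cKO mice. The cause was not tested.

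The 22 sign changes were in uncalled values. Mycl in control mice, at 0.00, was -0.02 with the replicate block, -0.00 with mouse number range as covariate, and from -0.10 (H96) to 0.10 without a mouse (-0.01 without H62, -0.02 without H97). The rest were without 1 mouse. Without a mouse, Mxd1 in cKO mice ran from -0.01 (H99) to 0.15. On the contralateral side Myc ran from -0.07 to 0.02 (H96), Mycn from -0.12 to 0.02 (H96) and Mycl from -0.03 (H64) to 0.17. On the ipsilateral side Mycl ran from -0.17 to 0.09 (H96), Mxi1 from -0.03 to 0.01 (H63, H95), Mxd3 from -0.05 to 0.01 (H95), Mxd4 from -0.05 to 0.01 (H62, H97), Mga from -0.06 to 0.01 (H62) and Mnt from -0.00 (H64) to 0.05. For the response Mxd1 ran from -0.15 to 0.02 (H100; 0.01 without H61) and Mga from -0.03 (H64; -0.02 without H97, -0.00 without H65) to 0.05.

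With the mouse as a replicate block, 4 and 5 members and 8559 and 9015 genes were called in control and cKO mice and 0 in the response comparison, and no member's call changed. Depth limits Mycl most, at 82 to 195 counts.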
